A study of Rattus norvegicus with 31 samples.

Results

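The rat heart libraries described here were used by their authors to assemble genes from the reads, and 6179 of the 46063 assembled genes with values (13.4%) are nested genes. A nested gene carries no gene name on any line of the deposited annotation, lies on an autosome, and has its whole span inside the span of a named gene, its host, on the same strand. The host of a nested gene is the smallest enclosing named gene with values, or the smallest enclosing one where none has values. There were 2984 hosts, and 2889 of them had values of their own. These measured hosts held 5995 nested genes, and the other 184 nested genes could not be set against a host. The nested genes are a part of 24431 unnamed genes, of which 17963 lie outside every named gene of their strand and 289 lie within one but on a sex chromosome or the mitochondrial genome. The rule used position and names only, and no measured value. Coordinates are those of the rn7 build.

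Left ventricle RNA was sequenced as total RNA depleted of ribosomal RNA, with stranded libraries, from untreated rats. The progenitor strains were BN-Lx/Cub, a Brown Norway strain that carries the Lx mutation, and SHR/OlaIpcv, the spontaneously hypertensive rat, each with 4 replicate libraries sequenced in batch 1. No label says whether these replicates are separate animals, and if they are not, p-values between the strains measure technical spread. The 21 recombinant inbred strains come from crosses of these strains in both directions and carry mosaics of their genomes. They comprise 9 BXH strains and 12 HXB strains, with 1 library per strain, of which 6 were sequenced in batch 2 and 15 in batch 3. Values are on the log2 scale that the authors deposited, and the depth behind them is unknown. A level here is such a value, and a log2 fold change is a difference of 2 mean levels. Ventricular genes were high in the progenitor libraries, with Myl2 (ventricular myosin light chain) between 18.23 and 18.69, and Ryr2 (the cardiac ryanodine receptor) between 16.66 and 17.03. Atrial genes were measured too, with Sln (sarcolipin) between 3.36 and 5.02, Myl7 between 5.30 and 7.78, Myl4 between 5.98 and 7.90, and Nppa (atrial natriuretic peptide) between 11.82 and 13.39. Of skeletal muscle genes, Tnni2 lay between 1.37 and 2.92, Tnnt3 between 10.11 and 10.63, and Ckm, which heart muscle also makes, between 16.03 and 16.50. The part of other muscle tissue in the results was not tested.

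Introns are transcribed with the rest of a gene, are removed by the spliceosome while the transcript is still being made, and are then degraded. Libraries from which only ribosomal RNA has been removed hold this unspliced RNA beside the mature messenger RNA, because no selection for a poly(A) tail takes place. Reads inside an intron can therefore come from the host's own precursor, or from a separate transcript that starts within the intron, such as a noncoding RNA, an alternative last exon or a transcribed repeat or retrocopy.

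Most nested genes were placed inside introns. Of the 6179, 4844 (78.4%) lay wholly within 1 intron of the host, 1249 spanned a host exon without sharing a base with it, and 86 (1.39%) shared exon bases with the host. The introns concerned were long, with a median of 36887 bases, and the hosts spanned a median of 103 kb, against 18.4 kb for autosomal named genes with values that hosted none. First introns held 1208 of the nested genes that lay in 1 intron (24.9%). With the span of each host cut into 3 equal parts from its 5′ end, the counts were 2277, 2317 and 1585. Few lay beside a host exon, as 700 began within 1 kb after the upstream exon and 448 ended within 1 kb before the downstream exon.

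The assembled models were mostly not plain stretches of an intron. At least 2 exons were assembled for 5575 nested genes (90.2%), and 604 had 1 exon. Among unnamed genes outside named genes, 77.3% had 2 or more exons. The gap between the exons was often short, however. In the 4894 nested genes with 1 transcript of 2 exons, the gap had a median of 559.5 bases and was under 50 bases in 1111 (22.7%). The corresponding share was 6.05% among unnamed genes outside named genes, with a median gap of 4848 bases, and 16.3% among named genes. The exons of a nested gene summed to a median of 1356 bases, with quartiles of 652 and 3412. An annotated identifier without a name was attached to 28 of them.

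Nested genes had low levels beside their hosts. Their mean level over the 8 progenitor libraries had a median of 3.14, against 9.42 for the hosts and 4.32 for all genes. Expressed per kb of exon, that is, as the log2 value minus the log2 of the summed exon length in kb, the median was 2.66 for nested genes and 5.07 for their hosts over 5995 pairs. This measure takes the deposited values as not yet scaled by length, which no source states, and sums exons over all transcripts of a gene. The median difference per kb was -2.49, with quartiles of -3.80 and -1.11. In 709 pairs (11.8%) the nested gene stood above its host per kb. A mean level over 5 was reached by 1326 nested genes (21.5%), and one over 8 by 176.

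The nested genes with the highest mean levels in the progenitors fell into compact and extended models. PRN7.71G0102157 is a single exon of 576 bases (chr5:138350191-138350766, plus strand) in intron 3 of Oscp1, a gene for a protein linked to solute uptake. Its levels were 13.39, 12.98, 13.11 and 12.90 in the 4 BN-Lx libraries and 13.27, 12.78, 12.80 and 12.59 in the 4 SHR libraries, which per length amounted to 13.77 per kb of exon for the nested gene and 5.36 for the host. The strains overlapped. PRN7.71G0025250 is likewise a single exon, of 562 bases (chr1:221963719-221964280, minus strand), in intron 19 of Pip5k1b, a lipid kinase gene, with 12.57 per kb of exon for the nested gene and 4.51 for the host. PRN7.71G0171723 is a single exon of 2836 bases (chr11:42122529-42125364, minus strand) in a Dcbld2 model with 1 intron, and reached 9.99 per kb of exon for the nested gene and 5.11 for the host. By this measure per kb, these compact genes stood above their hosts. The extended models stood below. PRN7.71G0107376 (chr6:13325337-13508625, plus strand) had 4 exons of 27305 bases in all, ran across an exon of Slc8a1, the sodium-calcium exchanger, and gave 7.1 per kb of exon for the nested gene and 8.5 for the host. PRN7.71G0227574 (chr18:7910622-7951444, minus strand) covered 40692 exon bases in intron 2 of Cdh2, the N-cadherin of the intercalated disc, and gave 6.48 per kb of exon for the nested gene and 9.59 for the host.

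The progenitor strains differed in 552 nested genes. 297 were higher in SHR and 255 were lower in SHR (limma, Benjamini-Hochberg adjusted p under 0.05 over all 46063 genes). That is 8.93% of nested genes, beside 14.3% of all genes (7.38% higher and 6.95% lower), and 21.5% of the hosts. The share rose with the level. It was 3.88% of nested genes with a mean level under 2, 6.5% from 2 to 4, 12.1% from 4 to 6, 20.1% from 6 to 8 and 29% at 8 and over. In the same ranges the shares of genes outside named genes were 5.95%, 10.9%, 17%, 25.5% and 22.5%, higher than those of nested genes in all but the last. The median log2 fold change, SHR minus BN-Lx, was 0.048 for nested genes and 0.012 for all genes. The values of the strains did not overlap in 933 nested genes (15.1%, beside 20.6% of all genes), and 524 of these were also called. The count of nested genes higher in SHR was 183 without SHR replicate 2, 184 without replicate 3 and 162 without replicate 4. The spike-in RNAs, which are control RNAs added to the samples, had library medians of 6.26 to 7.31 in BN-Lx and 5.82 to 6.49 in SHR. With that median as a covariate, 98 nested genes were higher and 83 lower. No share of all genes is given for these alternative fits, so an effect particular to nested genes cannot be read from them.

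Among the called nested genes without overlap, the largest positive fold changes came mostly from single-exon models. PRN7.71G0080166 (chr4:96473548-96474740, minus strand, 1 exon, 1193 exon bases, in intron 8 of 16) lies in Il12rb2, which encodes a subunit of the interleukin-12 receptor. Its levels were 3.94, 3.96, 3.99 and 3.27 in the 4 BN-Lx libraries and 8.09, 7.88, 8.13 and 8.04 in the 4 SHR libraries. The SHR libraries lay far above every BN-Lx library, by a log2 fold change of 4.24 ± 0.19 (SE, adjusted p = 2.9e-08), whereas the fold change of Il12rb2 itself was -0.16 ± 0.25 (SE, adjusted p = 0.72). PRN7.71G0026361 (chr1:232144946-232145282, minus strand, 1 exon, 337 exon bases, in intron 1 of 15) lies in Lipa, the lysosomal acid lipase gene, and had levels of 5.63, 5.91, 5.86 and 5.34 in the 4 BN-Lx libraries and 9.42, 9.36, 9.39 and 9.27 in the 4 SHR libraries. The strains were again far apart, with a log2 fold change of 3.68 ± 0.14 (SE, adjusted p = 6.2e-09), beside 0.28 ± 0.063 (SE, adjusted p = 0.011) for Lipa. PRN7.71G0027959 (chr1:245590328-245591274, plus strand, 1 exon, 947 exon bases, in intron 5 of 7) lies in As3mt, the gene of an arsenic methyltransferase. Its levels were 4.44, 3.78, 3.63 and 3.21 in the 4 BN-Lx libraries and 7.26, 7.03, 7.19 and 7.15 in the 4 SHR libraries. It was higher in SHR by 3.39 ± 0.24 (SE, adjusted p = 1.6e-06) on the log2 scale, whereas As3mt fell slightly, with -0.25 ± 0.075 (SE, adjusted p = 0.044). PRN7.71G0187197 (chr13:65940732-65942250, minus strand, 1 exon, 1519 exon bases, in intron 14 of 24), in the regulator of G-protein signalling-like gene Rgsl1, had levels of 6.28, 3.45, 3.46 and 4.84 in the 4 BN-Lx libraries and 8.46, 7.97, 7.65 and 8.06 in the 4 SHR libraries. It was higher in SHR by 3.53 ± 0.50 (SE, adjusted p = 5.2e-04), and its host had no values.

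The remaining pair with large positive fold changes was a single-exon model that shares exon bases with its host and a model of 2 exons. PRN7.71G0078281 (chr4:78330663-78331163, minus strand) shares 476 of its 501 exon bases with Tra2a, a splicing regulator, so that reads cannot be assigned between them with certainty. Its levels were 3.16, 2.21, 1.76 and 2.26 in the 4 BN-Lx libraries and 6.37, 6.33, 6.37 and 6.09 in the 4 SHR libraries, a log2 fold change of 3.94 ± 0.30 (SE, adjusted p = 2.7e-06), beside 0.038 ± 0.13 (SE, adjusted p = 0.88) for Tra2a. PRN7.71G0174605 (chr11:72052399-72088539, plus strand, 2 exons, 36119 exon bases, in intron 4 of 16) lies in Fgf12, whose product binds voltage-gated sodium channels. The exons of this model lie under 50 bases apart. Its levels were 4.43, 8.0, 7.76 and 4.53 in the 4 BN-Lx libraries and 9.06, 9.75, 9.85 and 9.55 in the 4 SHR libraries. BN-Lx itself was split, with 2 libraries at 4.43 and 4.53 and 2 at 7.76 and 8.0, all below the SHR libraries, and the log2 fold change was 3.37 ± 0.70 (SE, adjusted p = 0.0065). That call was lost with the spike-in level as a covariate (adjusted p = 0.18, against 0.0018 at the least over 15 alternatives). The nested gene PRN7.71G0174604 covers almost the same place, and its log2 fold change was -0.53 (adjusted p = 0.23), so that reads cannot be assigned between both models with certainty. In all, 149 nested genes overlapped another nested gene of the same host by over 90% of both spans.

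The largest negative fold changes were in multi-exon models as well as short ones. PRN7.71G0225685 (chr17:77710859-77721560, plus strand, 2 exons, 10670 exon bases, in intron 8 of 19) lies in Cacnb2, the beta subunit of the L-type calcium channel that starts contraction. The exons of this model lie under 50 bases apart. Its levels were 8.13, 8.04, 8.02 and 8.01 in the 4 BN-Lx libraries and 3.43, 5.43, 3.47 and 3.37 in the 4 SHR libraries. Every one of these SHR libraries lay below every BN-Lx library, and SHR replicate 2 stood apart from the rest of them. A later library of SHR replicate 4, which is not among these, gave 5.30, close to replicate 2 and against 3.37 in batch 1. The log2 fold change was -4.13 ± 0.37 (SE, adjusted p = 1.3e-05), whereas Cacnb2 gave 0.15 ± 0.12 (SE, adjusted p = 0.45). At almost the same place lies PRN7.71G0225720, whose fold change was 0.79 (adjusted p = 0.033), so that the assignment of reads between both models is uncertain. PRN7.71G0172774 (chr11:54950682-54951154, plus strand, 1 exon, 473 exon bases, in intron 1 of 26) lies in a model named for both Abhd10 and Phldb2. Its levels were 6.01, 5.79, 5.95 and 5.62 in the 4 BN-Lx libraries and 1.47, 2.47, 2.48 and 1.40 in the 4 SHR libraries, a log2 fold change of -3.89 ± 0.32 (SE, adjusted p = 5.3e-06), while the host rose by 0.42 ± 0.065 (SE, adjusted p = 9.4e-04). In 3 more, the SHR libraries were spread widely. PRN7.71G0195581 (chr14:52750788-52755380, minus strand, 2 exons, 3987 exon bases, in intron 4 of 6), in the protocadherin gene Pcdh7, had levels of 6.86, 7.19, 7.06 and 6.84 in the 4 BN-Lx libraries and 5.94, 2.93, 3.00 and 5.06 in the 4 SHR libraries, a log2 fold change of -2.75 ± 0.55 (SE, adjusted p = 0.0051), which was lost with the spike-in covariate (adjusted p = 0.053, with a range from 6.0e-04 over the alternatives). PRN7.71G0194689 (chr14:42683206-42699927, minus strand, 2 exons, 4919 exon bases, across an exon of its host), in the ubiquitin-conjugating enzyme gene Ube2k, had 5.05, 5.75, 5.71 and 5.59 in the 4 BN-Lx libraries and 3.20, 1.75, 1.84 and 4.41 in the 4 SHR libraries, a log2 fold change of -2.73 ± 0.50 (SE, adjusted p = 0.0032). PRN7.71G0036493 (chr2:70792944-70799914, plus strand, 2 exons, 3648 exon bases, in intron 1 of 13), in the cadherin gene Cdh12, had 5.97, 5.88, 5.76 and 5.75 in the 4 BN-Lx libraries and 4.90, 3.64, 1.61 and 3.49 in the 4 SHR libraries, a log2 fold change of -2.43 ± 0.51 (SE, adjusted p = 0.0071). In all 3 the 4 SHR libraries lay below the 4 BN-Lx libraries. The later library of SHR replicate 4 gave 6.10 for the nested gene in Pcdh7 and 3.67 for that in Cdh12. It gave 5.17 for that in Ube2k, which is within the BN-Lx range. In Pcdh7 and Ube2k, too, another nested gene covers almost the same place, PRN7.71G0195583 (1.65, adjusted p = 0.062) and PRN7.71G0194688 (0.61, adjusted p = 0.024), and reads cannot be assigned with certainty there either.

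**Figure D1:**
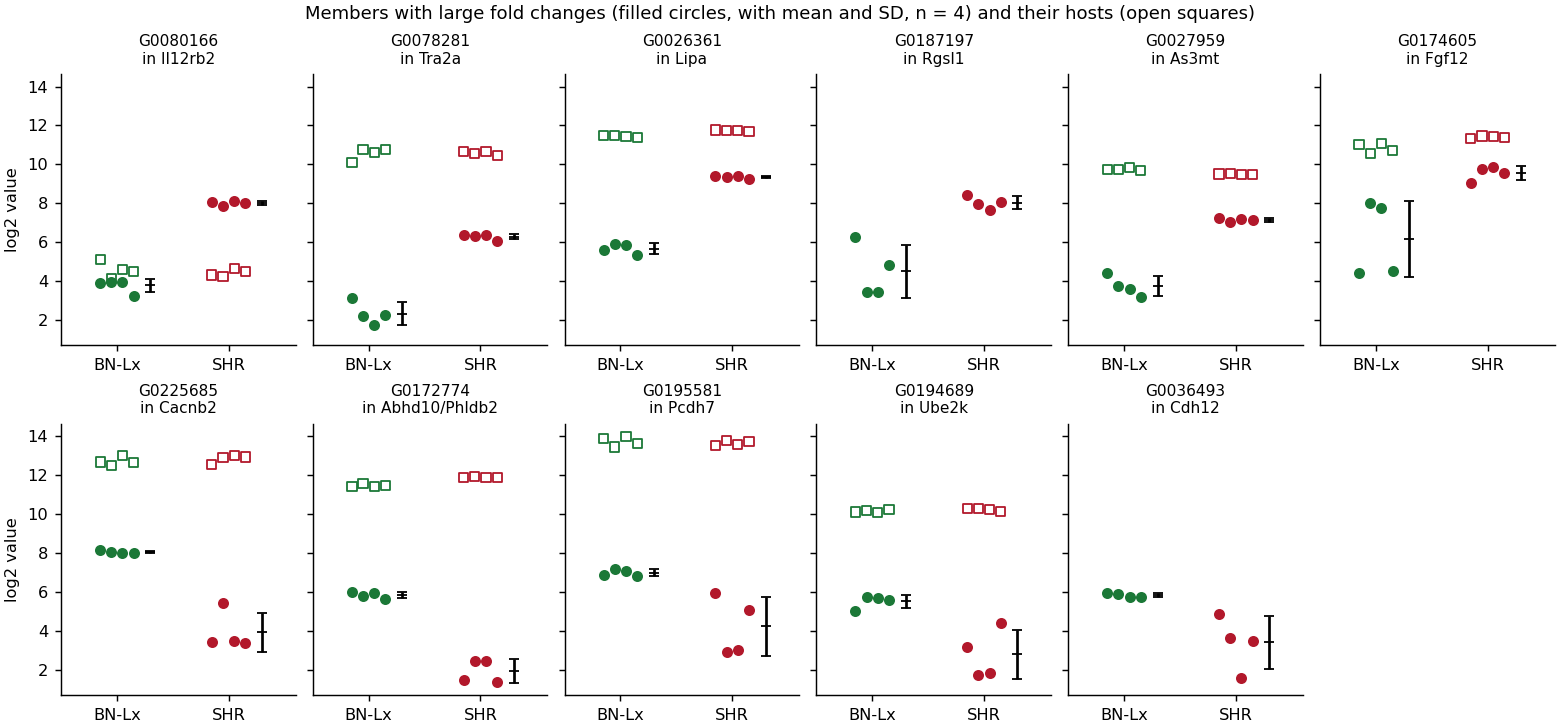
Levels (log2 value, vertical axis) of 11 called nested genes with large fold changes, 6 higher and 5 lower in SHR, in the BN-Lx (green) and SHR (red) libraries, as filled circles with the mean and SD beside them, and of their hosts as open squares. The nested genes separate the strains and the squares of their hosts move by less, as for PRN7.71G0080166 in Il12rb2 (3.79 in BN-Lx and 8.04 in SHR, with the host at 4.60 and 4.44). The hosts Fgf12 (0.56), Abhd10/Phldb2 (0.42), Lipa (0.28) and As3mt (-0.25, log2 fold changes) were themselves called, and Rgsl1 and Cdh12 had no values.

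Across the recombinant inbred strains, several of these nested genes fell into separate groups on either side of the midpoint of the progenitor means. For PRN7.71G0080166 in Il12rb2, 11 strains lay between 7.17 and 8.13 and 10 between 3.18 and 5.30, with none in between, while BN-Lx ran from 3.27 to 3.99 and SHR from 7.88 to 8.13. For PRN7.71G0078281 in Tra2a, 12 strains lay between 5.23 and 6.04 and 9 between 1.99 and 2.76. For PRN7.71G0026361 in Lipa, 14 strains lay between 8.20 and 9.14 and 7 between 4.99 and 7.07. The groups were not at the levels of the batch 1 progenitor libraries throughout. Between the progenitor ranges lay 16 strains for Il12rb2, 12 for Tra2a and 15 for Lipa. The upper groups of Tra2a and Lipa lay wholly below the lowest SHR library of batch 1. All strains, however, were of batches 2 and 3. The later library of SHR replicate 4 gave 7.25 for Il12rb2 and 8.38 for Lipa, against 8.04 and 9.27 in batch 1. Both later values lie within the upper strain groups, whereas that for Tra2a lay below its upper group. The part of batch in these levels was not tested. The split into separate groups was less clear elsewhere. For PRN7.71G0225685 in Cacnb2, 13 strains lay between 6.2 and 8.06 and 8 between 3.86 and 5.95, and for PRN7.71G0187197 in Rgsl1, 14 strains lay between 6.32 and 8.45 and 7 between 3.43 and 6.2. In an earlier deposited assembly of the strain libraries, the counterparts of the nested genes in Il12rb2 and Lipa correlated with these values by 1.00 and 1.00, but those in Tra2a, Cacnb2 and Rgsl1 by -0.42, 0.21 and -0.021. Fitting 1 to 3 normal components to the strain values, centred within batch, gave 2 or 3 components for 1407 nested genes (22.8%), beside 21.2% of all genes and 13.9% of the hosts. The share in nested genes is close to the background of all genes. Among nested genes that differed between the progenitors the share was 26.8%, and among the rest 22.4%.

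Whether a nested gene moved with its host was tested on the difference of their log2 values within each library. This difference, nested gene minus host, was higher in SHR for 167 and lower in SHR for 153 of 5995 nested genes, or 5.34%, beside 11.8% of all genes set against an enclosing or nearest named gene. Without SHR replicates 2, 3 or 4 in turn the count higher in SHR was 105, 110 and 96. Where both the nested gene and its host were called, in 247 pairs, 219 moved in the same direction (88.7%) and 28 in opposite directions. For all other genes and their named partners the share in the same direction was 64.7% of 1592 pairs. A further 288 called nested genes lay in a host that was not called, and the difference was called in 152 of these (52.8%, beside 50.8% of 4447 such other genes).

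The same counts can be read from the side of the host. In hosts higher in SHR lay 778 nested genes, of which 121 rose (15.6%) and 11 fell (1.41%), with a median log2 fold change of 0.39. In hosts lower in SHR lay 620, of which 98 fell (15.8%) and 17 rose (2.74%), with a median of -0.33. In hosts that were not called, 151 of 4597 rose (3.28%) and 137 fell (2.98%), with a median of 0.04. Of other genes with a named partner higher in SHR, 12.6% rose and 7.6% fell. With a partner lower in SHR, 13.8% fell and 6.76% rose, and with a partner not called 7.28% rose and 6.61% fell. In bulk tissue, fewer cells of a type and less RNA per cell cannot be told apart in any of these differences.

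**Figure D2:**
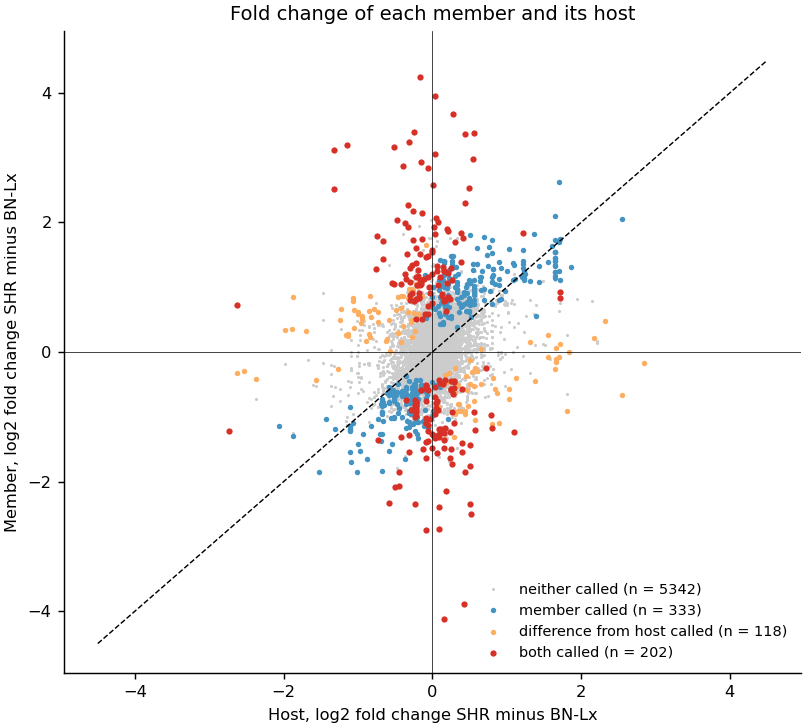
Log2 fold change (SHR minus BN-Lx) of each of 5995 nested genes (members, vertical axis) against that of its host (horizontal axis), with the dashed line at equal change and colours for the calls of the nested gene and of its difference from the host. Most blue points (nested gene called, difference not) lie in the quadrants where both moved the same way, and red points (both called, n = 202) stretch up and down near a host fold change of 0.

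In several of the largest differences the nested gene rose while the host fell. Both PRN7.71G0237067 (chr19:22748488-22751944, minus strand, 2 exons, 759 exon bases, in intron 1 of 20) and PRN7.71G0237107 (chr19:22911965-22915105, minus strand, 3 exons, 2413 exon bases, in intron 1 of 20) lie in Ces1f, a carboxylesterase gene whose family has near-identical copies, so that the assignment of its reads is uncertain. The levels of the former were 4.05, 3.39, 3.97 and 3.80 in the 4 BN-Lx libraries and 7.1, 6.69, 6.76 and 7.13 in the 4 SHR libraries, and those of Ces1f were 5.70, 5.29, 5.52 and 5.62 in BN-Lx and 4.62, 4.04, 4.36 and 3.79 in SHR. The nested gene rose and the host fell (log2 fold changes of 3.12 ± 0.21 (SE, adjusted p = 9.1e-07) and -1.33 ± 0.23 (SE, adjusted p = 0.0023)), both without overlap, giving a difference of 4.44 ± 0.25 (SE, adjusted p = 5.6e-07) on the log2 scale. For the latter the difference was 3.84 ± 0.24 (SE, adjusted p = 1.3e-06), while its own fold change of 2.51 lost its call in the fit over all groups (adjusted p = 0.056, with a range from 8.6e-05 over the alternatives). PRN7.71G0182364 (chr13:9006444-9007146, plus strand, 1 exon, 703 exon bases, in intron 1 of 25) in Cntnap5a, a neurexin-family gene, had levels of 0.16, 0.89, 0.92 and 0.63 in the 4 BN-Lx libraries and 4.02, 3.77, 3.77 and 3.80 in the 4 SHR libraries, whereas the log2 fold change of Cntnap5a was -1.15 ± 0.13 (SE, adjusted p = 9.4e-05). The difference was 4.34 ± 0.34 (SE, adjusted p = 9.5e-06). The nested genes in Il12rb2 and Tra2a described above completed this group, with differences of 4.41 and 3.91.

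Among the largest negative differences, PRN7.71G0134264 and PRN7.71G0010592 did not themselves pass the test, and their hosts rose. PRN7.71G0134264 (chr8:1659105-1663934, minus strand, 2 exons, 384 exon bases, in intron 7 of 19) lies in Gria4, a subunit of the AMPA receptor, and had levels of 3.12, 3.17, 4.11 and 4.24 in the 4 BN-Lx libraries and 2.71, 2.01, 3.50 and 3.74 in the 4 SHR libraries. Gria4 rose from 3.31 ± 0.37 (SD, n = 4) to 5.85 ± 0.20 (SD, n = 4), so that the difference was -3.22 ± 0.42 (SE, adjusted p = 4.5e-04). PRN7.71G0010592 (chr1:86999559-87028572, minus strand, 2 exons, 5490 exon bases, across an exon of its host) lies in a Garre1 model with 2 introns and had levels of 7.57, 7.29, 7.79 and 7.34 in the 4 BN-Lx libraries and 7.1, 7.37, 7.31 and 7.53 in the 4 SHR libraries, while the host rose from 5.07 ± 0.71 to 7.91 ± 0.06 (SD, n = 4 each). The difference was -3.01 ± 0.26 (SE, adjusted p = 2.1e-05). The nested genes in Cacnb2 and Abhd10/Phldb2 described above belonged to this group too, with differences of -4.28 and -4.31.

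Some hosts held several called nested genes. Of the hosts with values, 87 held 2 or more called nested genes, and in 62 of these all called ones moved in the same direction. The hosts with 6 or more called were singled out after their values had been seen, and nested genes of a host are not independent of each other. Ccbe1, whose secreted product acts in the growth of lymphatic vessels, held 17 nested genes, of which 15 rose in SHR. The median over these 17 was 2.42, 2.02, 2.38 and 2.64 in the 4 BN-Lx libraries and 3.08, 3.86, 3.71 and 3.66 in the 4 SHR libraries, without overlap. Their log2 fold changes ran from -0.26 to 2.1 with a median of 1.40, beside 1.65 ± 0.16 (SE, adjusted p = 1.9e-05) for Ccbe1, and the difference from the host was called for 1. In Fgf12, 9 of 12 rose, with medians of 6.25, 6.16, 6.60 and 6.26 in BN-Lx and 7.17, 7.34, 7.49 and 7.36 in SHR, again without overlap. The 9 lay within the first 244 kb of a host that spans 571 kb, and Fgf12 itself rose by 0.56 ± 0.11 (SE, adjusted p = 0.0038).

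Other hosts held nested genes that fell together in SHR. Erbb4, the receptor of neuregulin in cardiomyocytes, held 22, of which 8 fell, with a median log2 fold change of -0.60 over all 22 beside -0.35 for the host (adjusted p = 0.0092). Over its 22 nested genes the library medians were 5.32, 5.44, 5.75 and 5.34 in BN-Lx and 4.42, 5.05, 5.14 and 5.30 in SHR, so that the strains did not overlap, although SHR replicate 4 lay close to the lowest BN-Lx library. Prkg1, a cyclic GMP-dependent kinase, held 15, of which 7 fell, with a median log2 fold change of -0.67 over all 15 beside -0.58 for the host (adjusted p = 4.8e-04). Over the nested genes of Prkg1 the library medians of the strains overlapped, with 6.83 in BN-Lx replicate 2 and 7.05 in SHR replicate 3. Lrmda, a gene named for melanocyte differentiation, held 18, of which 7 fell, with a median log2 fold change of -0.76 over all 18 beside -0.68 for the host (adjusted p = 0.0024). Immp2l, a subunit of a mitochondrial inner membrane peptidase, held 11, of which 6 fell, with a median log2 fold change of -0.71 over all 11 beside -0.51 for the host (adjusted p = 7.2e-04). In Slc8a1, the sodium-calcium exchanger that removes calcium from the cardiomyocyte, all 6 nested genes fell, and medians were 9.73, 9.57, 9.70 and 9.51 in BN-Lx and 8.84, 9.02, 8.72 and 8.80 in SHR. Slc8a1 itself fell by less, with -0.23 ± 0.062 (SE, adjusted p = 0.026) against a median of -0.83 for its nested genes, and the difference was called for 4 of the 6. Among these 4, PRN7.71G0107382 and PRN7.71G0107383 overlap by 99.96% of the longer span. Both lie within the span of PRN7.71G0107376, also among the 4, so that reads cannot be assigned between these models with certainty. Lsamp, a neural cell adhesion gene, held 13, of which 6 fell, while the host did not pass the test (-0.16, adjusted p = 0.21).

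The host with the most nested genes, 23, was a model that carries the names of both Samd5 and Sash1, genes of sterile alpha motif proteins. Its 1036 kb behaved as 2 stretches, set apart after the values had been seen. The 13 nested genes in the first 564 kb had log2 fold changes of 0.66 to 1.22, and 6 of them rose in SHR. The 10 from 703 kb on had fold changes of -0.12 to 0.47, and limma called none of them. The host as a whole had a fold change of 0.21 ± 0.081 (SE, adjusted p = 0.10), and the median correlation of its nested genes with it across the strains was -0.18. Neighbouring nested genes of the same host were compared too. Over 1387 pairs of neighbours in the same intron, a median of 1105 bases apart, the median correlation across the strains was 0.30, and it was 0.30 over 1719 pairs in different introns, a median of 19689 bases apart. Where both neighbours were called between the progenitors, 98 of 114 pairs moved in the same direction.

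**Figure D3:**
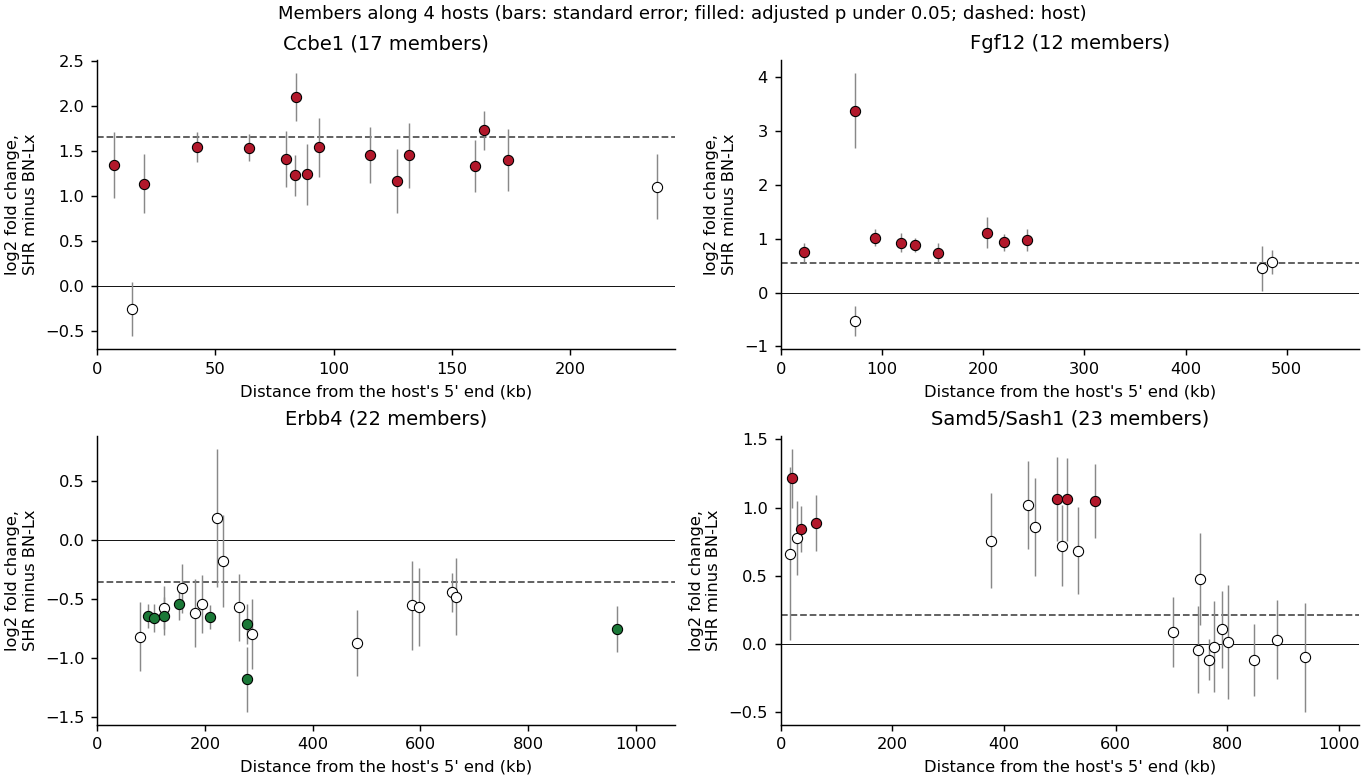
Log2 fold change (SHR minus BN-Lx, with its standard error) of each nested gene by its distance in kb from the 5′ end of the host, for Ccbe1, Fgf12, Erbb4 and the Samd5/Sash1 model. Filled points passed the test and the dashed line is the host. Most points of Ccbe1 lie a little under the line of their host at 1.65, and those of Samd5/Sash1 fall from a median of 0.86 to -0.0039 beyond 703 kb.

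Nested genes were also described by what their hosts do, with 8 lists of heart genes. Genes for ion handling held 42 nested genes in 18 hosts, of which 8 fell and 2 rose in SHR, with a median log2 fold change of 0.13, of the other sign than most calls. Slc8a1 supplied 6 of those that fell, including the overlapping models given above. Besides 1 each way in Cacnb2, which are the overlapping pair given above, one in the inositol trisphosphate receptor gene Itpr1 fell (-0.62) and one in the calcineurin gene Ppp3ca rose (0.56). Genes for receptors and signalling held the most, 133 in 31 hosts, of which 23 fell and 2 rose, with a median of -0.34 beside 0.012 for all genes tested. Erbb4 and Prkg1 supplied 8 and 7 of those that fell, and 1 in the angiotensin receptor gene Agtr1a rose (1.37). PRN7.71G0153421 (chr9:70495391-70507700, minus strand, 2 exons, 12288 exon bases, in intron 2 of 31), in Erbb4, the one with the smallest p in this list, had levels of 8.35, 8.30, 8.52 and 8.44 in the 4 BN-Lx libraries and 7.77, 7.63, 7.82 and 7.79 in the 4 SHR libraries, a log2 fold change of -0.65 ± 0.10 (SE, adjusted p = 0.0011), which was lost in the fit over all groups (adjusted p = 0.061, with a range from 8.4e-04 over the alternatives). The exons of PRN7.71G0153421 lie under 50 bases apart. In the list of the costamere, intercalated disc and cytoskeleton, 9 of 68 fell and 4 rose, among them 5 in Ctnna3, the alpha-T-catenin of the intercalated disc (-0.81 to -0.37). PRN7.71G0241043 (chr19:55240455-55246005, plus strand, 2 exons, 2763 exon bases, in intron 3 of 27) in Pard3, a cell polarity gene, had levels of 5.32, 5.38, 5.41 and 5.48 in the 4 BN-Lx libraries and 2.83, 3.15, 3.23 and 2.78 in the 4 SHR libraries, a log2 fold change of -2.40 ± 0.23 (SE, adjusted p = 2.4e-05), beside 0.087 for its host. The 21 strains lay between 3.72 and 4.95, that is, between the ranges of the progenitors. Here too the progenitors were of batch 1 and the strains of batches 2 and 3, and the part of batch was not tested.

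Hosts of the other lists gave smaller counts. Sarcomere genes held 9 nested genes in 5 hosts, and the one called was PRN7.71G0156842 (chr9:111012095-111026339, plus strand, 3 exons, 2817 exon bases, across an exon of its host) in Myom1, the M-band protein myomesin. Its levels were 3.02, 3.48, 3.56 and 4.11 in the 4 BN-Lx libraries and 5.50, 5.54, 6.02 and 6.21 in the 4 SHR libraries, a log2 fold change of 2.27 ± 0.28 (SE, adjusted p = 1.6e-04), while Myom1 fell, with -0.33 ± 0.058 (SE, adjusted p = 0.0024). Genes for mitochondria and fatty acid oxidation held 9, of which 3 rose, including PRN7.71G0196074 (chr14:59141376-59148437, plus strand, 2 exons, 7010 exon bases, in intron 2 of 11) in Ppargc1a, the coactivator of mitochondrial biogenesis. Its levels were 2.70, 2.74, 2.87 and 3.02 in the 4 BN-Lx libraries and 3.80, 4.2, 4.34 and 4.07 in the 4 SHR libraries, with a log2 fold change of 1.27 ± 0.27 (SE, adjusted p = 0.0073), lost with the spike-in covariate (adjusted p = 0.059, with a range from 0.0018 over the alternatives). Transcription factor and RNA-binding protein genes held 44, of which 6 fell and 1 rose, 5 of the former in the splicing factor gene Rbfox1. PRN7.71G0158015 (chr10:8389118-8472708, minus strand, 3 exons, 69552 exon bases) in Rbfox1 had levels of 10.98, 11.06, 11.13 and 10.86 in the 4 BN-Lx libraries and 9.96, 9.96, 10.35 and 10.15 in the 4 SHR libraries, a log2 fold change of -0.90 ± 0.10 (SE, adjusted p = 7.5e-05), and Rbfox1 itself gave -0.22 ± 0.082 (SE, adjusted p = 0.096). None of 12 nested genes in extracellular matrix hosts was called by limma, and PRN7.71G0226646 (chr17:86103637-86124164, plus strand, 2 exons, 394 exon bases, across an exon of its host) in the nidogen gene Nid1 had the smallest p, with -0.96 ± 0.33 (SE, adjusted p = 0.069). None of 35 in hosts of endothelium and other cell types was called either, 21 of them in the main model of the transcription factor gene Mecom, where PRN7.71G0040824 (chr2:113291427-113313612, plus strand, 2 exons, 12594 exon bases, in intron 8 of 27) had the smallest p, with 1.76 ± 0.60 (SE, adjusted p = 0.068). The former passed without the intensity trend (adjusted p = 0.036, the lowest of its alternatives, with 0.27 as the highest) and the latter without BN-Lx replicate 1 or 2 (adjusted p = 0.032 at the lowest, 0.15 at the highest). At an unadjusted p under 0.05 limma gave 3 of the 12 and 6 of the 35. The lists were written with earlier results of these data known, and their counts stand beside the 14.3% called among all genes.

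Across the 21 strains, the level of a nested gene followed that of its host weakly. With values centred within batch, Pearson's r had a median of 0.16 over 5995 pairs, with quartiles of -0.12 and 0.44. Spearman's rho had a median of 0.15. Within batch 2 the median r was 0.19 and within batch 3 it was 0.16. A permutation test over the strains called 928 positive and 169 negative correlations, or 18.3% of pairs, beside 20% of all genes with a partner. The strength depended on the level of the nested gene. The median r was 0.084 for nested genes with a level under 2, 0.25 from 4 to 6, 0.41 from 6 to 8 and 0.46 at 8 and over. Genes outside named genes, set against the nearest named gene, gave medians of 0.055, 0.066, 0.21 and 0.32 in the same ranges. The weak correlations at low levels are given as values only. The median was 0.27 when the host value came from a deposited table of RefSeq genes instead (5041 pairs). Adjusted values were taken over all 45815 genes with a partner, and a gene and its host share each library.

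**Figure D4:**
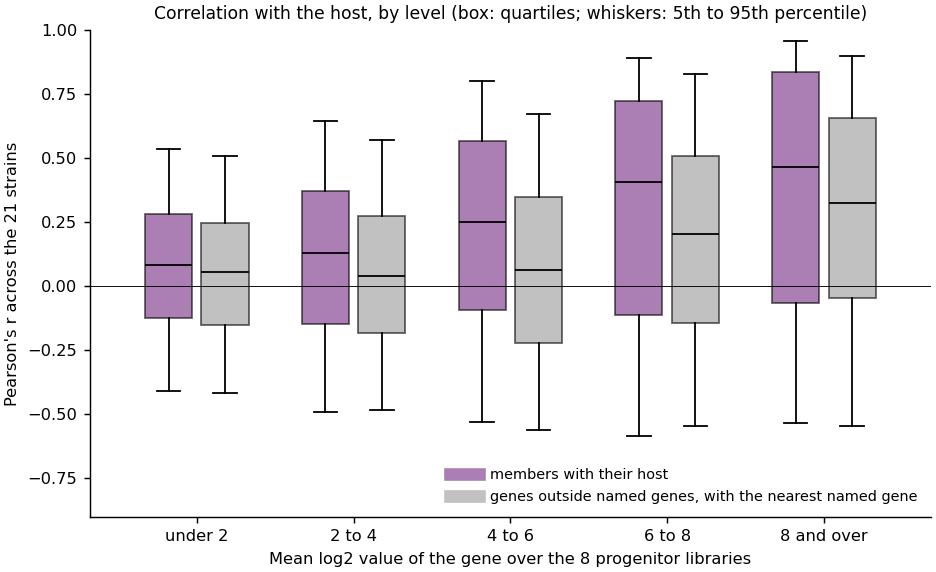
Pearson's r across the 21 strains (vertical axis) between nested genes and their hosts (purple) and between genes outside named genes and the nearest named gene (grey), by mean level of the gene. Boxes are quartiles and whiskers the 5th and 95th percentiles. The purple medians climb from 0.084 under a level of 2 to 0.46 at 8 and over, and the boxes are wide throughout.

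Some pairs went together or apart closely. Among pairs with both levels over 5, PRN7.71G0243643 (chr20:24579366-24600573, minus strand, 3 exons, 20830 exon bases, in intron 4 of 5) and a Ctnna3 model with 5 introns had r = 0.99 (rho = 0.98, permutation test, adjusted p = 2.6e-04 and 3.1e-04, with r = 0.99 in batch 2, 0.98 in batch 3 and 0.98 without the 2 farthest strains). The nested gene ranged from 8.47 in BXH9/Cub to 10.28 in HXB13/Ipcv, with a median of 9.43. PRN7.71G0221657 (chr17:41529860-41532629, minus strand, 1 exon, 2770 exon bases, in intron 2 of 2) and H4f3, one of the histone H4 genes with near-identical copies, had r = 0.98 (rho = 0.98, permutation test, adjusted p = 2.6e-04 and 3.1e-04, with r = 0.97 in batch 2, 0.99 in batch 3 and 0.98 without the 2 farthest strains). PRN7.71G0202050 (chr15:14946975-14988309, plus strand, 2 exons, 41304 exon bases, in intron 28 of 33) in Fhit, a dinucleotide hydrolase gene, had r = 0.98 (rho = 0.98, permutation test, adjusted p = 2.6e-04 and 3.1e-04, with r = 0.98 in batch 2, 0.98 in batch 3 and 0.97 without the 2 farthest strains). With the RefSeq value of Fhit, however, r was -0.16, while that for Ctnna3 was 0.93. The exons of PRN7.71G0202050 lie under 50 bases apart. The most negative correlations were those of PRN7.71G0075869 (chr4:57221723-57262749, plus strand, 2 exons, 13512 exon bases, across an exon of its host) with Snd1, a nuclease gene, r = -0.90 (rho = -0.92, permutation test, adjusted p = 2.6e-04 and 3.1e-04, with r = -0.65 in batch 2, -0.93 in batch 3 and -0.87 without the 2 farthest strains), of PRN7.71G0118091 (chr6:127047065-127085489, minus strand, 2 exons, 9665 exon bases, across an exon of its host) with Setd3, the actin histidine methyltransferase, r = -0.88 (rho = -0.87, permutation test, adjusted p = 2.6e-04 and 4.9e-04, with r = -0.40 in batch 2, -0.93 in batch 3 and -0.82 without the 2 farthest strains), and of PRN7.71G0201297 (chr15:7047491-7080823, plus strand, 2 exons, 6331 exon bases, in intron 4 of 6) with Ube2e2, a ubiquitin-conjugating enzyme, r = -0.87 (rho = -0.87, permutation test, adjusted p = 2.6e-04 and 3.1e-04, with r = -0.45 in batch 2, -0.92 in batch 3 and -0.87 without the 2 farthest strains). The nested gene in Snd1 ranged from 5.88 in BXH9/Cub to 7.15 in HXB31/Ipcv, that in Setd3 from 7.25 in BXH8/Cub to 8.39 in HXB24/Ipcv, and that in Ube2e2 from 6.21 in BXH9/Cub to 7.75 in HXB20/Ipcv. With RefSeq values the correlations were -0.77, -0.13 and -0.77, respectively. Of the strains named for these 3, BXH8/Cub and BXH9/Cub had the lowest medians over all nested genes (2.65 and 2.72) and spike-in medians of 6.89 and 7.68. HXB24/Ipcv, HXB20/Ipcv and HXB31/Ipcv had the highest (3.41, 3.38 and 3.37) and spike-in medians of 5.83, 5.83 and 5.67. The nested genes in Ctnna3 and Fhit were lowest in BXH9/Cub too (8.47 and 7.13), and that in Fhit was highest in HXB20/Ipcv (8.52). That in H4f3 went the other way, with 9.90 in BXH9/Cub and 8.85 in HXB20/Ipcv. The part of these library differences in the positive and negative correlations was not tested. The smallest p that 100000 permutations can give is 1e-05.

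The families of recombinant inbred strains differed mostly in one direction. With batch as a covariate, 1311 nested genes were higher in HXB and 55 were lower, or 22.1%, beside 27.9% of all genes (15.1% higher and 12.8% lower). The median log2 fold change, HXB minus BXH, was 0.30 for nested genes, 0.11 for all genes and 0.0031 for the hosts, of which 571 were higher and 574 lower. Nested gene minus host was higher in HXB for 788 and lower for 43 (13.1% and 0.717% of 5995, beside 9.99% and 4.72% of all genes with a partner). After quantile normalization 683 nested genes were higher and 107 lower, and the differences were 322 and 107. In hosts that were lower in HXB, 92 of 976 nested genes were higher (9.43%) and 17 lower. In hosts that were higher in HXB, 469 of 1327 were higher (35.3%) and 7 lower. In hosts that were not called, 735 of 3692 were higher (19.9%) and 29 lower.

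This difference was found in batch 3 and went with the spike-in level of the libraries. In batch 3 the median level of nested genes was 2.65 to 3.01 in the 6 BXH libraries and 2.87 to 3.41 in the 9 HXB libraries, the lowest of the latter being HXB5/Ipcv. In batch 2 it was 3.01 to 3.21 in 3 BXH and 3.06 to 3.26 in 3 HXB libraries, which overlapped. The median level of the hosts stayed between 9.35 and 9.48 in every library of the groups. The spike-in median in batch 3 was 6.68 to 7.68 in BXH and 5.66 to 6.62 in HXB, without overlap, and HXB5/Ipcv had the highest of the latter. In batch 3 the family and the spike-in level therefore cannot be told apart. With the 6 strains of batch 2 alone limma called no nested gene (301 or 4.87% at an unadjusted p under 0.05, median 0.03). With the spike-in level as a covariate it again called none (361 or 5.84% at an unadjusted p under 0.05, median 0.016). Of all genes 6 and 2 were called in these fits. A second library of SHR replicate 4, from a later batch, shows how far nested genes can move within 1 replicate. Their median was 3.60 there and 3.25 in the batch 1 library, and 4574 of 6179 (74%) were higher in the later library, by a median of 0.36. The hosts differed by a median of 0.0049.

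**Figure D5:**
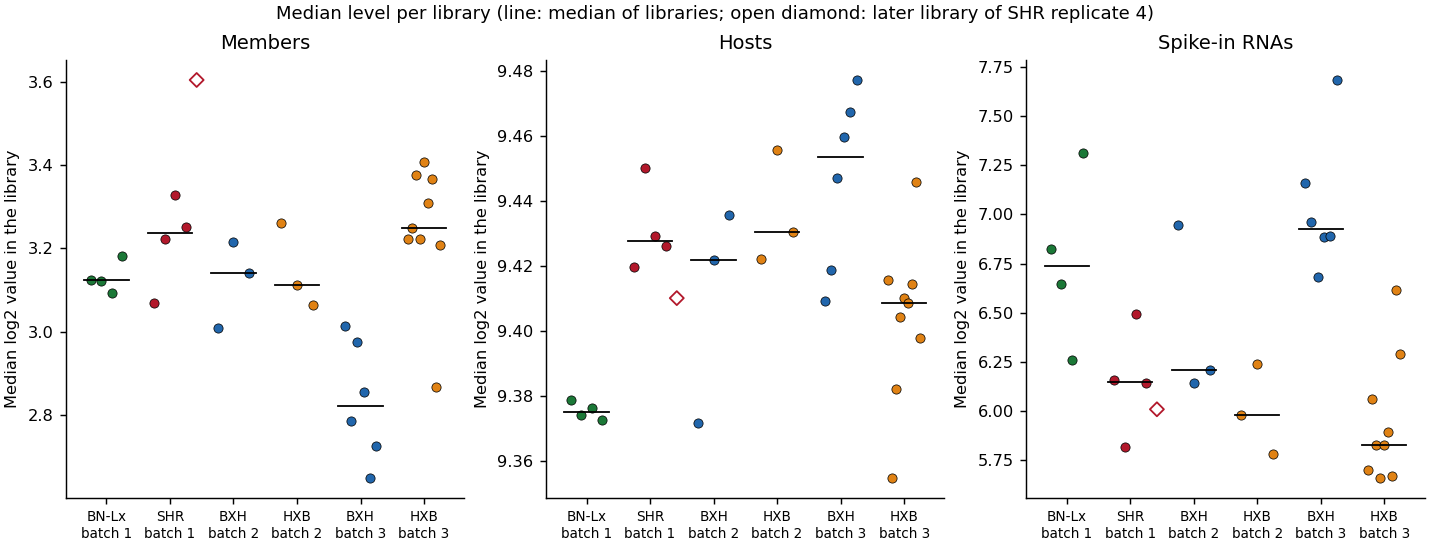
Median log2 value of the nested genes (members), of their hosts and of the spike-in RNAs in each library (points), by strain group and batch. The line is the median of the libraries and the open diamond the later library of SHR replicate 4. The nested genes are lowest in the BXH libraries of batch 3, where the spike-in RNAs are highest, while the medians of the hosts all lie within 9.35 to 9.48.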

How the data were processed

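Total RNA depleted of ribosomal RNA from rat left ventricle was sequenced by the authors with a stranded kit. The processing notes of the authors give the build as rn7 and list StringTie 1.3.5, HISAT2 2.1.0, RSEM 1.3.1, DESeq2, Bowtie2 2.3.4.3 and cutadapt 1.9.1 without their roles. The authors deposited assembled gene models and, per library, log2 values for these genes, and a second log2 table for RefSeq genes. No source used here says how the log2 scale was made or how deep each library was, so no counting interval can be given. Tables of strain means, of transcripts and of a merged assembly were not used here. 1 column, the later library of SHR replicate 4, matched no sample alone and enters alternatives and a description only.

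Nested genes and hosts were found by position and strand, and the host is the smallest enclosing named gene with values or, where none has values (184 nested genes), the smallest enclosing one. All 46063 genes entered 1 fit per comparison in limma 3.58.1 (R 4.3.3, intensity trend), SHR against BN-Lx over 8 libraries and HXB against BXH over 21 strains with batch. Gene minus host was fitted likewise for 45815 genes with a partner, which for genes outside a host is the nearest named gene. Adjusted p is Benjamini-Hochberg over the whole table, with a threshold of 0.05, two-sided. Correlations used values centred within batch and 100000 permutations within batch, two-sided (numpy 2.4.6). Modes used mclust 6.1.1. No filter on low values was applied. The limma fits, the permutation test and the count of modes were tried on simulated data, and the search for nested genes and hosts was not. Of 500 simulated sets of 1 component, 8.8% were given more than 1 mode.

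The members and the lists of hosts were chosen with earlier results of these data known. Named nested genes are the 6 with the largest fold changes each way among those called without overlap, the 5 largest differences from the host each way, the 5 with the highest levels, the 3 highest and 3 lowest correlations with both levels over 5, and the one with the smallest p in each of 8 lists, beside the host with the most. One gene that this rule names is not reported here. Alternatives left out each progenitor in turn, or changed the intensity trend, the level minimum, the normalization, the samples fitted, the host, the batch or a spike-in covariate. The last, the batch 2 fit and the RefSeq hosts were added after the data were seen.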

Additional observations from a re-analysis of the deposited data

Results flagged for a closer look

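A library stood apart from the others of its group, by Dixon's test at the 95% level, in 9 of 108 groups of values of the named nested genes, and chance alone marks about 5% of groups. Among the progenitors, PRN7.71G0080166 in Il12rb2 was at 3.27, where the other libraries of the group lay between 3.94 and 3.99, in BN-Lx replicate 4. PRN7.71G0078281 in Tra2a was at 6.09, where the other libraries of the group lay between 6.33 and 6.37, in SHR replicate 4. PRN7.71G0225685 in Cacnb2 was at 5.43, where the other libraries of the group lay between 3.37 and 3.47, in SHR replicate 2. The later library of SHR replicate 4, outside this group, gave 5.30 for it. PRN7.71G0182364 in Cntnap5a was at 4.02, where the other libraries of the group lay between 3.77 and 3.80, in SHR replicate 1. PRN7.71G0237107 in Ces1f was at 3.20, where the other libraries of the group lay between 3.95 and 4.08, in BN-Lx replicate 2. PRN7.71G0075869 in Snd1 was at 6.32, where the other libraries of the group lay between 6.74 and 6.77, in BN-Lx replicate 3.

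Among the BXH strains, PRN7.71G0182364 in Cntnap5a was at 5.10, where the other libraries of the group lay between 0.78 and 2.47, in BXH6/Cub. PRN7.71G0025250 in Pip5k1b was at 15.20, where the other libraries of the group lay between 10.64 and 12.23, in BXH5/Cub, and PRN7.71G0156842 in Myom1 was at 5.61, where the other libraries of the group lay between 3.19 and 4.3, in the same strain. The test set each of these values against the other BXH strains only, and high levels occurred among the HXB strains too. There the nested gene in Pip5k1b ran from 10.72 to 15.07, with 15.07 in HXB24/Ipcv and 14.97 in HXB17/Ipcv. That in Cntnap5a ran from 1.13 to 4.85 and that in Myom1 from 3.45 to 6.15, both highest in HXB17/Ipcv. A strain here is 1 library, so a value of the strain and one of the library cannot be told apart.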

How the results depend on the processing

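Limited to genes with a mean level over 5, 111 nested genes were higher and 152 lower in SHR, with 59 and 89 differences from the host. With the spike-in covariate these were 98, 83, 56 and 47. The lower count was 127 in the fit over all groups and 155 with the mean of both libraries of SHR replicate 4. Leaving out each progenitor gave 162 to 290 higher, 185 to 227 lower, and 96 to 146 and 108 to 118 differences. For HXB against BXH, nested genes called numbered 0 with batch 2 alone, 746 over level 5, 790 after quantile normalization and 0 with the spike-in covariate, and differences 0, 468, 429 and 0, with 1389 in batch 3 alone. The fewer genes over level 5 account in part for the lower counts there, and otherwise the cause was not tested. The median correlation with the host was 0.34 over level 5 and 0.27 with RefSeq hosts, and nested genes with 2 or 3 modes numbered 338 over level 5. PRN7.71G0221657 minus its host moved from -0.01 to 1.10 against the largest enclosing gene, which is another host. Of 1027 alternatives in all for named nested genes, 970 kept their side of the threshold (16 of them with the other sign, in values called in neither fit). A further 48 lost the call and 8 gained one. The remaining 1, the H4f3 difference, was not called in the main fit and gained a call with the other sign.

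With the replicate number as a block, 210 were higher, 203 lower, and 115 and 109 differed from the host. Deviations of same-numbered BN-Lx and SHR libraries correlated by 0.03, -0.039, -0.038 and -0.0058, so no shared deviation was seen. The labels do not say whether same-numbered samples were paired. Depth is unknown, and with 4 libraries a strain changes can be missed. In simulated data over all genes, limma recovered 40% of log2 changes of 1 and 74% of changes of 2. For gene minus partner it recovered 20% and 68%.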

Other observations

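An earlier assembly of the recombinant inbred libraries, deposited beside the one described, allows nested genes to be looked up again. A counterpart with more than 50% reciprocal overlap of exon bases was found for 1378 of the 6179 nested genes (22.3%). Where both had values, in 1362 pairs, the median correlation across the 21 strains was 0.97, and it was over 0.9 in 887. For nested genes with large changes, r was 1.00 for that in Il12rb2, 1.00 in Lipa, 1.00 in Pard3, 0.82 in Abhd10/Phldb2 and 0.63 in Pcdh7, but 0.21 in Cacnb2, -0.021 in Rgsl1 and -0.42 in Tra2a, so that the strain values of these 3 differ between the assemblies. The tables of both assemblies name the same strain libraries, so this describes the models and not a repeat of the measurement.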
